A study of Mus musculus with 36 samples.

Results

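Transcript levels of 10 genes of mitochondrial fusion and fission were followed across every condition of an RNA-seq series on mouse embryonic fibroblasts (MEF). The genes were chosen by name for their known roles, with no measured value in the rule, but earlier results of these data were known at the time. They are the fusion genes Mfn1, Mfn2 and Opa1, the fission genes Dnm1l, Fis1, Mff, Mief1 and Mief2, and Oma1 and Yme1l1, the proteases that cut OPA1. All 10 were found among the 36856 gene symbols in the deposited table, and all 10 were among the 16065 genes with enough counts to be tested. The 36 libraries came from cells of genotype WT or PERK -/-, the second lacking the kinase PERK. Cells of each genotype received DMSO, Thapsigargin, BtdCPU, Halofuginone, BtdCPU + Thapsigargin or Halofuginone + Thapsigargin, which makes 12 groups of 3 replicates. Doses, times and batches are not in the labels, which also do not say whether replicates came from separate cultures, so p-values measure only the spread between these libraries, which may be technical. The labels name no clone or second line for either genotype, so genotype and cell line cannot be told apart.

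Mitochondria join and divide continually. The GTPases MFN1 and MFN2 on the outer membrane and OPA1 on the inner membrane carry out fusion, while the GTPase DRP1, encoded by Dnm1l, is brought to the outer membrane by the adaptors MFF, MIEF1 and MIEF2 and there constricts the organelle. FIS1 is a further outer-membrane protein linked to fission. YME1L1 and OMA1 cut the long forms of OPA1, and OMA1 does so when mitochondria are stressed. PERK is the kinase of the endoplasmic reticulum (ER) that starts the integrated stress response under ER stress, and thapsigargin causes that stress by blocking the calcium pump of the ER. BtdCPU activates the related kinase HRI, and halofuginone activates the kinase GCN2 through inhibition of prolyl-tRNA synthetase. Much of the control of fusion and fission acts on the proteins, which were not measured here.

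Library totals ran from 32454257 to 37178107 counts. Eif2ak3, the gene of PERK, stood at 31.1 ± 1.1 CPM (counts scaled to library size with TMM factors; SD, n = 3) in WT and 9.95 ± 0.760 CPM (SD, n = 3) in PERK -/- libraries under DMSO, a log2 fold change of -1.65 (edgeR adjusted p 8.69e-09). All 7 fibroblast markers had a median over 1 CPM, with a summed level of 13300 to 38700 CPM per library, lowest in PERK -/- Halofuginone + Thapsigargin and highest in WT Halofuginone. None of 5 epithelial, 4 endothelial or 3 muscle markers reached a median of 1 CPM, although the highest library had Krt8 at 14.3 CPM and Krt18 at 8.62 CPM. Of the leukocyte markers, Cd68 had a median of 1.77 CPM and Ptprc of 0.0417 CPM. Cd3e, the T cell marker, was at 0 in each library. The summed levels were 0.114 to 23.6 CPM (epithelial), 0.248 to 5.33 CPM (endothelial), 0 to 0.621 CPM (muscle) and 0.605 to 3.81 CPM (leukocyte, 1 of 3 over 1 CPM). By group mean, the epithelial and endothelial sums were lowest in WT DMSO and highest in WT Halofuginone. Of 3 neural markers, Tubb3 and Map2 were above 1 CPM, with a summed level of 26.6 CPM (lowest, WT Halofuginone) to 236 CPM (highest, WT Thapsigargin), and the median of Sox10 was 0. The part of these markers in the results was not tested. In bulk RNA, fewer cells of a type and less RNA per cell cannot be told apart.

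Under DMSO the transcripts of WT cells were ordered by CPM per kilobase of exon (kb). Lengths were unions of all annotated exons, from 1714 bases for Fis1 to 9757 for Mff, so the order between genes depends on these lengths. Fis1 was highest at 78.7 ± 10.3 CPM per kb (SD, n = 3), followed by Dnm1l at 34.97 ± 2.48, Yme1l1 at 29.5 ± 5.94 and Mfn2 at 14.4 ± 2.78. Then came Opa1 at 9.65 ± 0.671, Mfn1 at 8.21 ± 0.693, Oma1 at 7.35 ± 0.225 and Mff at 6.88 ± 1.09, and last Mief2 at 3.49 ± 0.516 and Mief1 at 2.36 ± 0.189 CPM per kb. Dnm1l overlapped Yme1l1, Opa1 overlapped Mfn1, and Oma1 overlapped Mff between libraries, while each of the other neighbours in the order was separated. The PERK -/- order was the same except that Mfn1, at 15.9 ± 0.720 CPM per kb (SD, n = 3), stood above Opa1, at 13.4 ± 0.681, with no overlap between libraries. Yme1l1 and Mfn2 were not separated in PERK -/- cells, nor were Dnm1l and Yme1l1. Over the 12 group means, Mief2 had the widest range, 1.72 on the log2 CPM scale, and Mff the narrowest, 0.41.

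**Figure D1:**
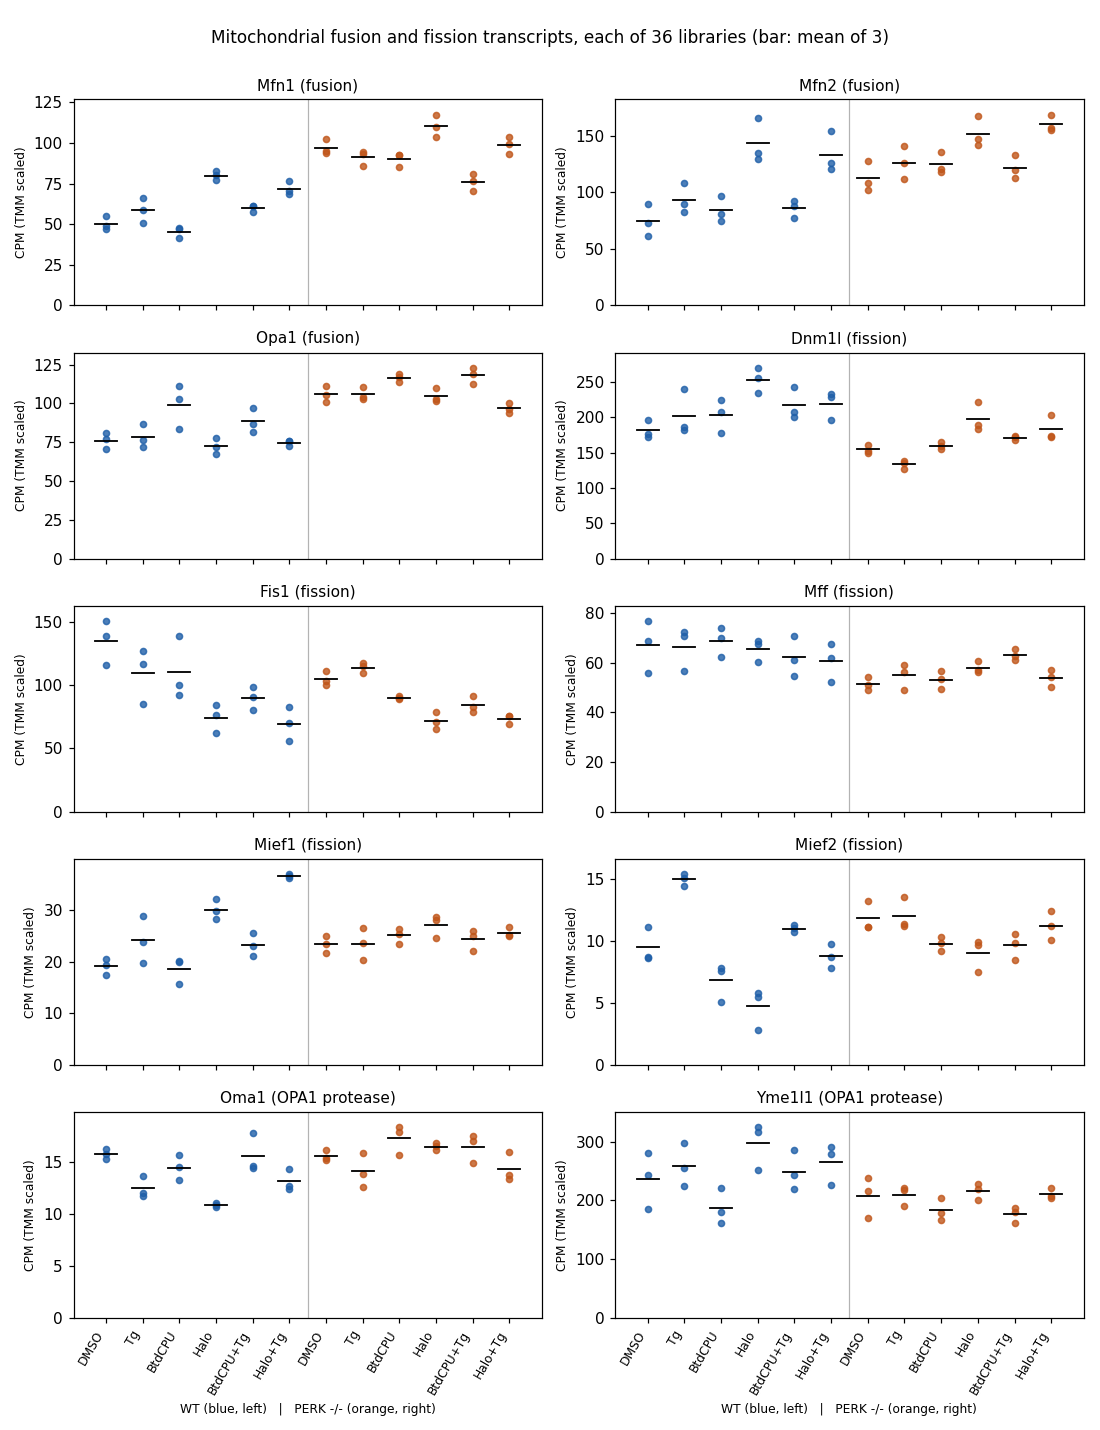
Levels of the 10 transcripts in CPM (vertical axis, from 0) in each of 36 libraries (points) and as group means of 3 (bars), WT to the left in blue and PERK -/- to the right in orange; Tg is thapsigargin and Halo is halofuginone. Every PERK -/- DMSO library lies above every WT DMSO library for Mfn1, Mfn2 and Opa1, and the WT halofuginone mean stands lowest for Mief2.

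Counts of members called at an edgeR adjusted p under 0.05 were read against the share of all tested genes called in the same comparison. Between genotypes under DMSO, 4 members were higher and 2 lower in PERK -/- cells, where 49.5% of all genes were called. In WT cells, thapsigargin raised 4 and lowered 1 (47.6% of all genes), halofuginone raised 5 and lowered 3 (68.2%), and BtdCPU raised 1 (22.2%). Adding halofuginone to thapsigargin raised 3 and lowered 2 in WT cells (45.3%). In PERK -/- cells, halofuginone raised 2 and lowered 1 (42.2%), halofuginone added to thapsigargin did likewise (52.7%), and BtdCPU added to thapsigargin raised 1 and lowered 2 (35.6%). With 10 members, each count stood near or below the number that the share over all genes would give, so these counts say nothing particular to the members.

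No member was called in 3 comparisons of treatments. For thapsigargin in PERK -/- cells (27.9% of all genes called), 0 members had an unadjusted p under 0.05 by edgeR and DESeq2 called 0. There the replicate block called 2 members, Mfn2 and Dnm1l, and a fit of the compared groups alone called 1, Dnm1l. For BtdCPU in PERK -/- cells (3.59%), 0 members had an unadjusted p under 0.05 by edgeR and DESeq2 called 0. For BtdCPU added to thapsigargin in WT cells (2.32%), 2 members had an unadjusted p under 0.05, Mief2 with a log2 fold change of -0.44 and Oma1 with 0.32, and DESeq2 called 1, Oma1. There the replicate numbers paired the libraries, and with the replicate block 2 members were called, Fis1 at -0.27 (edgeR adjusted p 0.0329) and Oma1 at 0.32 (edgeR adjusted p 0.0331), as were 2079 in place of 372 of all genes.

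**Figure D2:**
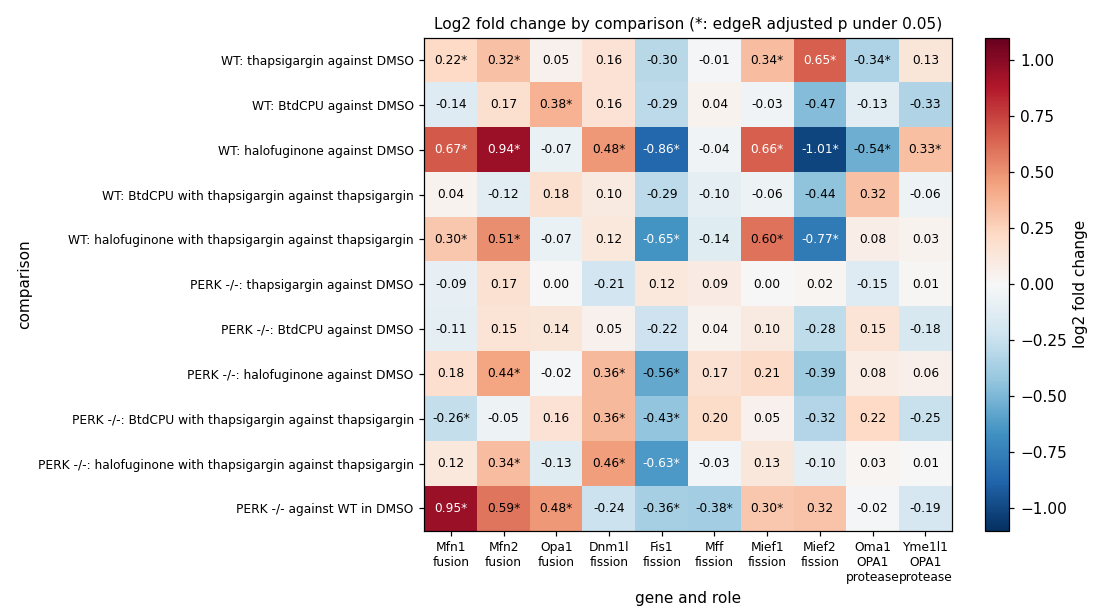
Log2 fold change of each member (columns, with its role) in the 11 comparisons of 2 groups (rows), in colour and as a number, with an asterisk where the edgeR adjusted p is under 0.05. The row of halofuginone in WT cells holds 8 asterisks, and the row of PERK -/- against WT holds 6, those of the 3 fusion genes all higher.

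The 3 fusion genes differed between the genotypes before any treatment. Mfn1, the mitofusin with the stronger tethering activity, was at 49.0, 46.7 and 54.9 CPM in the WT DMSO libraries and at 95.1, 94.1 and 102.2 CPM in the PERK -/- ones. Mfn2, which also ties mitochondria to the ER, was at 72.6, 61.3 and 89.9 CPM in WT and at 107.8, 101.7 and 127.1 CPM in PERK -/- cells. Opa1, the GTPase of inner-membrane fusion and cristae shape, was at 76.8, 70.3 and 80.8 CPM in WT and at 111.4, 100.7 and 105.3 CPM in PERK -/- cells. For each of the 3, all PERK -/- libraries lay above all WT libraries. The log2 fold changes were 0.95 for Mfn1 (SE 0.09, edgeR adjusted p 1.60e-10), 0.59 for Mfn2 (SE 0.13, edgeR adjusted p 0.000487) and 0.48 for Opa1 (SE 0.09, edgeR adjusted p 5.16e-05). These 3 calls held under every alternative run. In the RefSeq annotation Mfn1 overlaps Gnb4, whose own log2 fold change between genotypes was 0.46 (edgeR adjusted p 0.000254), and the use of strand in counting is not given in the sources used here.

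Sequences just before the annotated starts are shown for some of the members, the fusion genes and the fission genes Fis1 and Mief2. Those of Dnm1l, Mff, Mief1, Oma1 and Yme1l1, which also had calls, are not shown. All 10 members matched the RefSeq promoter table of GRCm38.p6, with 15 starts among them. Of Fis1 and Mfn2, which have more than 1 start, the most upstream one is shown. The lines give the 120 bases before the start, 5′ to 3′ on the gene's strand. Capitals mark any match, on either strand, to the ETS core, the CCAAT box, the E-box or the core of the NRF1 element, whose letters are given after the lines.
Mfn1, chr3:32529362-32529481, plus strand: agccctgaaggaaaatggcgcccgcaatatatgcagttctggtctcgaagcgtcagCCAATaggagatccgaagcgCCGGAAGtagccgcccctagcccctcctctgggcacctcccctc
Mfn2, chr4:147904910-147905029, minus strand: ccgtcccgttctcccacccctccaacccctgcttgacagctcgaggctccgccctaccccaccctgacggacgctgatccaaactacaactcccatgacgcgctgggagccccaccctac
Opa1, chr16:29579214-29579333, plus strand: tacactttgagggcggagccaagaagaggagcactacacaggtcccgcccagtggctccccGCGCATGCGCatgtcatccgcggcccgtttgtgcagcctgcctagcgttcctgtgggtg
Fis1, chr5:136953155-136953274, plus strand: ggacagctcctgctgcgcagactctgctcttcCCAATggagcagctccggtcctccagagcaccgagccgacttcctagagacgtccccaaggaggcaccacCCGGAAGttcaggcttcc
Mief2, chr11:60728278-60728397, plus strand: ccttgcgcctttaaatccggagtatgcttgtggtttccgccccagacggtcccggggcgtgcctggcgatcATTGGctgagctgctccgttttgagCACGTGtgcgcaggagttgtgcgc

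Within 250 bases before a start, the ETS core, CCGGAAG, was found in 4 of the 15 member promoters (those of Mfn1, Fis1, Mief1 and Yme1l1) and in 6.91% of the 32851 promoters of the table. The CCAAT box was found in 7 of the 15 member promoters, of 7 members, and in 33.8% of all promoters. The NRF1 core, GCGCATGC, was found for Opa1 alone among the members, as 2 overlapping matches on the 2 strands starting 59 and 57 bases before the start, and in 2.26% of promoters. The E-box, CACGTG, was found for Mief2 alone, starting 24 bases before the start, and in 6.02% of promoters. TGACGTG, the core of the XBP1 element, was found for Mfn2 alone, 41 bases before one of its downstream starts and so outside the line shown, and in 1.65% of promoters. TGATGNAAN, the ATF4 composite element with N for any base, was found for 0 of 10 members and in 3.44% of promoters. Mfn1, Fis1 and Yme1l1 each hold an ETS core and a CCAAT box. A link between these motifs and the changes in transcript level was not tested. A match is a run of letters in these windows and no evidence of binding, and the ETS core, the CCAAT box and the E-box were chosen after the sequences had been seen.

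Halofuginone raised both mitofusins in WT cells. Mfn1 reached 80.2, 76.9 and 82.7 CPM, and Mfn2 reached 129.1, 134.6 and 165.7 CPM. Each of these libraries lay above all WT DMSO libraries. The log2 fold change was 0.67 for Mfn1 (SE 0.09, edgeR adjusted p 8.23e-08) and 0.94 for Mfn2 (SE 0.13, edgeR adjusted p 3.19e-07), and both calls held under every alternative. Gnb4, which overlaps Mfn1, had a log2 fold change of -0.03 in this comparison (edgeR adjusted p 0.774). Opa1 was at 77.8, 71.9 and 67.1 CPM, within reach of the DMSO libraries, with a log2 fold change of -0.07 (95% interval -0.26 to 0.11), although with library size as the only scaling it was called at -0.20 (edgeR adjusted p 0.0339).

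The mitofusins responded less to halofuginone against DMSO in PERK -/- cells. Mfn1 was at 109.7, 103.9 and 117.4 CPM there, above the PERK -/- DMSO libraries, with a log2 fold change of 0.18 that did not pass the threshold (SE 0.09, edgeR adjusted p 0.0938). With the replicate block this rise was called, at 0.18. Mfn2 was at 141.4, 146.6 and 167.4 CPM, above the DMSO libraries, and rose by 0.44 (SE 0.13, edgeR adjusted p 0.00871). The Mfn2 call was lost without PERK -/- Halofuginone replicate 3 (0.36) or PERK -/- DMSO replicate 2 (0.37). Between genotypes, where 35% of all genes and 4 of 10 members responded differently to halofuginone (1 upward and 3 downward in PERK -/- relative to WT cells), the response of Mfn1 differed by -0.49 (SE 0.13, edgeR adjusted p 0.00297) and that of Mfn2 by -0.50 (SE 0.19, edgeR adjusted p 0.0373). The Mfn1 difference held when any 1 library was left out, but with no filter on low counts it was -0.42 (edgeR adjusted p 0.0765). The Mfn2 difference lay between -0.60 and -0.33 over the alternatives and was lost without any of 7 libraries, namely WT Halofuginone replicates 2 (-0.49) and 3 (-0.33), WT DMSO replicates 1 (-0.43) and 2 (-0.33), PERK -/- Halofuginone replicates 1 (-0.46) and 2 (-0.48), and PERK -/- DMSO replicate 3 (-0.40). It was also lost with library size as the only scaling (-0.40), with no filter on low counts (-0.43) and when the fit held the compared groups alone (-0.50).

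Thapsigargin moved the mitofusins by less. In WT cells Mfn1 was at 58.9, 50.4 and 66.4 CPM and Mfn2 at 89.4, 82.3 and 108.5 CPM, and for both genes these libraries overlapped the DMSO ones. Each of them lay above the WT DMSO library of the same replicate number, and the replicate block kept both calls. The labels do not say that equal numbers belong together. The rises were 0.22 for Mfn1 (SE 0.09, edgeR adjusted p 0.0397) and 0.32 for Mfn2 (SE 0.13, edgeR adjusted p 0.0462). Each call was lost when any 1 of several libraries was left out. Leaving out WT Thapsigargin replicate 3 gave 0.07 and 0.15, leaving out replicate 1 of that group gave 0.16 and 0.30, and leaving out WT DMSO replicate 1 or 2 gave 0.15 or 0.12 for Mfn1 and 0.25 or 0.15 for Mfn2, none of which passed. Without WT Thapsigargin replicate 2 the Mfn2 value was 0.35 and its edgeR adjusted p 0.0503. Both were lost as well with no filter on low counts (0.19 and 0.29) and when the fit held the compared groups alone (0.22 and 0.32). The log2 fold changes in PERK -/- cells were -0.09 for Mfn1 and 0.17 for Mfn2, neither called.

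Halofuginone added to thapsigargin again raised both mitofusins in WT cells. Mfn1 was at 70.3, 68.4 and 76.8 CPM and Mfn2 at 125.4, 120.8 and 153.6 CPM, above all WT Thapsigargin libraries. Relative to thapsigargin alone, Mfn1 rose by 0.30 (SE 0.09, edgeR adjusted p 0.00706) and Mfn2 by 0.51 (SE 0.13, edgeR adjusted p 0.00217). The Mfn1 call was lost without WT Halofuginone + Thapsigargin replicate 3 (0.22) or WT Thapsigargin replicate 2 (0.18), with no filter on low counts (0.25) and when the fit held the compared groups alone (0.28), while the Mfn2 call held under every alternative. Mfn2 in PERK -/- cells stood at 156.3, 155.3 and 168.5 CPM against 125.6, 111.7 and 141.1 CPM with thapsigargin alone, with no overlap, a rise of 0.34 (SE 0.13, edgeR adjusted p 0.0306). That call was lost without PERK -/- Halofuginone + Thapsigargin replicate 3 (0.30) or PERK -/- Thapsigargin replicate 2 (0.26). Mfn1 in PERK -/- cells had a log2 fold change of 0.12, not called. In this setting the responses differed between genotypes by -0.18 for Mfn1 and -0.17 for Mfn2. Neither difference was called, in the main fit or under any of the 18 alternatives.

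BtdCPU gave another pattern among the fusion genes. In WT cells Opa1 was at 111.0, 83.2 and 103.1 CPM with BtdCPU, above the DMSO libraries, a rise of 0.38 (SE 0.09, edgeR adjusted p 0.00240). The call was lost without WT BtdCPU replicate 1 (0.28, edgeR adjusted p 0.0563) and when the fit held only the compared groups (0.37, edgeR adjusted p 0.126). Opa1 in PERK -/- cells was at 113.5, 116.8 and 118.7 CPM, also above its DMSO libraries, and the log2 fold change was 0.14 (95% interval -0.05 to 0.32, edgeR adjusted p 0.531). The 2 responses were not shown to differ (-0.25, SE 0.13, edgeR adjusted p 0.521), and for BtdCPU no member differed between genotypes, where 0.199% of all genes did. No member had an unadjusted p under 0.05 in that test by edgeR, and DESeq2 called 0.

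Mfn1 fell when BtdCPU was added to thapsigargin in PERK -/- cells, from 93.4, 85.7 and 94.1 CPM to 70.6, 76.4 and 80.9 CPM, with no overlap. The fall was -0.26 on the log2 scale (SE 0.09, edgeR adjusted p 0.02), and it was lost without PERK -/- BtdCPU + Thapsigargin replicate 1 (-0.21), PERK -/- Thapsigargin replicate 1 (-0.20) or PERK -/- Thapsigargin replicate 3 (-0.24). It was lost as well with no filter on low counts (-0.23). Gnb4, the gene that overlaps Mfn1, had a log2 fold change of -0.49 in this comparison (edgeR adjusted p 0.0002). In WT cells the same comparison gave Mfn1 a value of 0.04 (SE 0.09). The test of the difference between genotypes called no member (20.8% of all genes), 1 member had an unadjusted p under 0.05 by edgeR and DESeq2 called 0. That member was Mfn1, with -0.30 (edgeR adjusted p 0.0929). Mfn1 was called under scaling by library size alone, at -0.38 (edgeR adjusted p 0.0164), and with the replicate block, at -0.30.

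Among the fission genes, Fis1 and Dnm1l moved in opposite directions under halofuginone in both genotypes. Fis1 was at 138.5, 150.6 and 115.8 CPM in WT DMSO and at 84.4, 76.2 and 62.1 CPM in WT Halofuginone libraries. In PERK -/- cells it went from 103.4, 111.3 and 100.4 CPM to 70.5, 78.5 and 64.9 CPM. The treated and untreated libraries did not overlap in either genotype. The log2 fold change of Fis1 was -0.86 in WT cells (SE 0.15, edgeR adjusted p 4.54e-06) and -0.56 in PERK -/- cells (SE 0.14, edgeR adjusted p 0.00218). Both calls held under every alternative. The 2 responses were not shown to differ (0.30, 95% interval -0.11 to 0.72, edgeR adjusted p 0.258), although with the replicate block the difference was called, at 0.30.

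Dnm1l, the gene of the constricting GTPase DRP1, rose with halofuginone. It went from 176.7, 172.5 and 196.6 CPM to 270.3, 234.1 and 255.5 CPM in WT cells, and from 161.2, 152.7 and 149.7 CPM to 188.6, 183.6 and 221.7 CPM in PERK -/- cells. Again neither genotype showed overlap. The rise was 0.48 in WT cells (SE 0.10, edgeR adjusted p 0.000182) and 0.36 in PERK -/- cells (SE 0.10, edgeR adjusted p 0.00631). The first held under every alternative, and the second was lost without PERK -/- Halofuginone replicate 3 (0.27). The responses differed by -0.12 (95% interval -0.42 to 0.18), which was not called.

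With halofuginone added to thapsigargin, Fis1 fell by 0.65 on the log2 scale in WT cells (SE 0.14, edgeR adjusted p 0.000423), from 126.6, 116.3 and 84.9 CPM to 82.5, 69.9 and 55.9 CPM, with no overlap. Its fall in PERK -/- cells was -0.63 (SE 0.14, edgeR adjusted p 0.000448), from 109.3, 117.4 and 114.7 CPM to 75.5, 75.8 and 69.2 CPM. Dnm1l rose in PERK -/- cells from 138.4, 126.9 and 135.2 CPM to 172.1, 174.0 and 203.9 CPM, a log2 fold change of 0.46 (SE 0.10, edgeR adjusted p 0.000455). These 3 calls held under every alternative. In WT cells Dnm1l overlapped between the groups, with a log2 fold change of 0.12 (95% interval -0.10 to 0.33). The difference between the Dnm1l responses was 0.34 and did not pass the threshold (SE 0.15, edgeR adjusted p 0.0761). Over the 18 alternatives it lay between 0.26 and 0.46 and was called in 7, among them scaling by library size alone (0.37). It was called without WT Halofuginone + Thapsigargin replicate 1 (0.42) or 3 (0.44), WT Thapsigargin replicate 1 (0.46) or 2 (0.45), or PERK -/- Thapsigargin replicate 1 (0.42).

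BtdCPU added to thapsigargin moved the same genes in PERK -/- cells. Dnm1l rose by 0.36 (SE 0.10, edgeR adjusted p 0.00767), to 173.0, 167.6 and 172.6 CPM, and the call held under every alternative. Fis1 fell by 0.43 on the log2 scale (SE 0.14, edgeR adjusted p 0.0183), to 82.4, 91.4 and 79.1 CPM. Both sets of libraries were clear of those with thapsigargin alone. The Fis1 call was lost without PERK -/- BtdCPU + Thapsigargin replicate 1 (-0.42) or 3 (-0.39), or without PERK -/- Thapsigargin replicate 2 (-0.41). Thapsigargin alone gave Dnm1l a log2 fold change of 0.16 in WT cells, not called. In PERK -/- cells it gave -0.21, not called, although the groups did not overlap and a fit of the compared groups alone called it at -0.27 (edgeR adjusted p 0.0156).

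Mief2, which encodes the adaptor MiD49 that recruits DRP1, was the member whose level ranged most. Its counts per library ran from 92 to 569. In WT cells it was at 8.71, 11.1 and 8.64 CPM with DMSO, at 15.04, 15.37 and 14.41 CPM with Thapsigargin and at 5.79, 5.48 and 2.84 CPM with Halofuginone. The 3 groups did not overlap, and WT Halofuginone replicate 3 was the lowest of all libraries. Mief2 rose by 0.65 with thapsigargin (SE 0.18, edgeR adjusted p 0.00284) and fell by 1.01 on the log2 scale with halofuginone (SE 0.18, edgeR adjusted p 1.55e-05). Halofuginone added to thapsigargin brought it to 7.79, 9.74 and 8.67 CPM, clear of thapsigargin alone, a log2 fold change of -0.77 (SE 0.18, edgeR adjusted p 0.000603). These 3 calls held under every alternative.

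BtdCPU gave values of Mief2 in the same direction that did not pass the threshold. In WT cells it was at 5.04, 7.82 and 7.59 CPM, all under the DMSO libraries, with a log2 fold change of -0.47 (SE 0.18, edgeR adjusted p 0.0567). DESeq2 called this difference at -0.49 (adjusted p 0.0241), and so did edgeR with RLE size factors at -0.49 (adjusted p 0.0481) and under scaling by library size alone at -0.55 (adjusted p 0.0372). It was also called without WT BtdCPU replicate 2 (-0.60) or WT DMSO replicate 3 (-0.55). Mief2 in PERK -/- cells stayed within a narrower range, with group means from 9.001 ± 1.32 CPM with Halofuginone to 12.02 ± 1.29 CPM with Thapsigargin (SD, n = 3), and it was not called in any treatment comparison there by edgeR with all groups in the fit and no block. For halofuginone it was called at -0.39 by DESeq2 (adjusted p 0.0493) and by edgeR when the fit held the compared groups alone (adjusted p 0.0358).

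The response of Mief2 passed the threshold for a difference between genotypes in 2 of the 5 tests. For thapsigargin, where 38.1% of all genes and 3 of 10 members differed (all 3 with a lower value in PERK -/- cells), the Mief2 difference was -0.63 (SE 0.25, edgeR adjusted p 0.0445), with 0.65 in WT and 0.02 in PERK -/- cells. For halofuginone added to thapsigargin, where 32.7% of all genes and 2 of 10 members differed (1 higher and 1 lower), it was 0.68 (SE 0.25, edgeR adjusted p 0.0363), with -0.77 in WT and -0.10 in PERK -/- cells. For halofuginone against DMSO it was 0.62 and not called (SE 0.25, edgeR adjusted p 0.0580), with -1.01 in WT and -0.39 in PERK -/- cells. Over the 18 alternatives this last difference lay between 0.42 and 0.85 and was called in 10. Those included DESeq2 (0.60), no filter on low counts (0.69) and scaling by library size alone (0.72). It was called as well without WT Halofuginone replicate 1 (0.85) or 2 (0.81), WT DMSO replicate 1 (0.74) or 3 (0.74), PERK -/- Halofuginone replicate 3 (0.74) or PERK -/- DMSO replicate 2 (0.71). The thapsigargin difference was lost without any of 8 of the 12 libraries, with values of -0.66 to -0.54, and held only without WT DMSO replicate 2, PERK -/- Thapsigargin replicate 3 or PERK -/- DMSO replicate 1 or 3. It was also lost with library size as the only scaling (-0.61) and with no filter on low counts (-0.62). The difference for halofuginone added to thapsigargin was lost without WT Halofuginone + Thapsigargin replicate 1 (0.65), PERK -/- Halofuginone + Thapsigargin replicates 1 (0.68) and 2 (0.60), and PERK -/- Thapsigargin replicates 1 (0.68) and 2 (0.63).

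The other 2 members that responded differently to thapsigargin were Mfn1 (-0.32, SE 0.13, edgeR adjusted p 0.0462) and Dnm1l (-0.37, SE 0.15, edgeR adjusted p 0.0494). Their log2 fold changes were 0.22 and 0.16 in WT cells against -0.09 and -0.21 in PERK -/- cells. The Mfn1 difference held only without WT Thapsigargin replicate 2, WT DMSO replicate 3 or PERK -/- Thapsigargin replicate 3, and without any other library it was -0.34 to -0.22 and not called. The Dnm1l difference held only when the library left out was WT DMSO replicate 3, PERK -/- Thapsigargin replicate 1, or replicate 1 or 2 of WT Thapsigargin, and was otherwise -0.39 to -0.23. Both were lost with no filter on low counts (-0.31 and -0.36) and when the fit held the compared groups alone (-0.32 and -0.37).

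**Figure D3:**
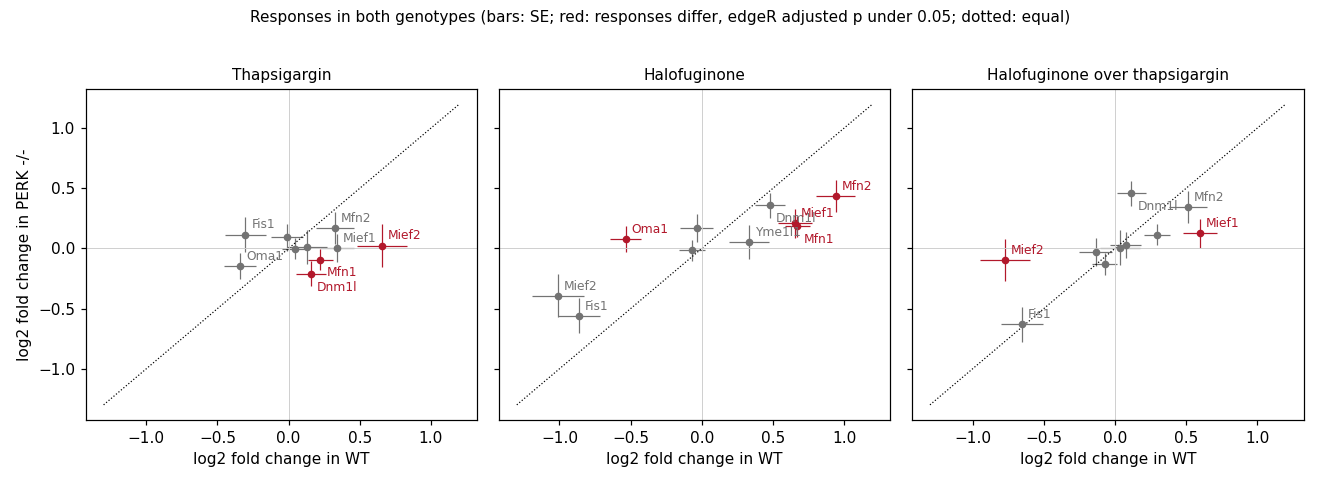
Log2 fold change of each member in WT (horizontal axis) and in PERK -/- cells (vertical axis) for thapsigargin, halofuginone, and halofuginone over thapsigargin, with SE bars and a dotted line of equal response. Genes in red are those whose responses differed, and Oma1 lies at -0.54 in WT and 0.08 in PERK -/- cells for halofuginone.

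Mief1, which encodes the related adaptor MiD51, went against Mief2 under halofuginone. In WT cells it was at 19.3, 17.5 and 20.6 CPM with DMSO and at 29.9, 28.3 and 32.1 CPM with Halofuginone, and at 37.0, 36.6 and 36.2 CPM with Halofuginone + Thapsigargin against 19.7, 23.9 and 28.9 CPM with Thapsigargin. The halofuginone libraries lay above their controls in both settings. Mief1 rose by 0.66 (SE 0.12, edgeR adjusted p 1.79e-05) and by 0.60 (SE 0.12, edgeR adjusted p 0.000136), and both calls held under every alternative. The values in PERK -/- cells were 0.21 and 0.13, neither called. The responses differed by -0.45 for halofuginone (SE 0.17, edgeR adjusted p 0.0406) and by -0.47 for halofuginone added to thapsigargin (SE 0.17, edgeR adjusted p 0.0316). The first held only without PERK -/- Halofuginone replicate 1 or PERK -/- DMSO replicate 2, and without any of the other 10 libraries it was -0.47 to -0.33 and not called. The second held only without WT Halofuginone + Thapsigargin replicate 2, WT Thapsigargin replicate 3, PERK -/- Halofuginone + Thapsigargin replicate 1 or PERK -/- Thapsigargin replicate 2, and was otherwise -0.46 to -0.29. With no filter on low counts they were -0.37 and -0.40, neither called. The first was also lost under scaling by library size alone (-0.34) and the second when the fit held the compared groups alone (-0.42).

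The Mief1 rise with thapsigargin in WT cells, 0.34 (SE 0.12, edgeR adjusted p 0.0207), came from libraries that overlapped the DMSO ones, and it was lost without either of WT Thapsigargin replicates 2 (0.29) and 3 (0.14) or of WT DMSO replicates 1 (0.29) and 2 (0.23). Each Thapsigargin library lay above the DMSO library of the same replicate number, and the replicate block kept the call. Under DMSO Mief1 was higher in PERK -/- cells by 0.30 (SE 0.12, edgeR adjusted p 0.0425), at 23.5, 21.7 and 25.1 CPM with no overlap. This was lost without WT DMSO replicate 1 (0.30) or 2 (0.24) or PERK -/- DMSO replicate 1 (0.29) or 3 (0.24), with RLE size factors (0.28), with no filter on low counts (0.26) and when the fit held the compared groups alone (0.28). Dnm1l, at -0.24 (SE 0.10, edgeR adjusted p 0.0621), was not called although its groups did not overlap, and it was called at -0.25 by DESeq2 (adjusted p 0.0436), by edgeR with RLE size factors (adjusted p 0.0494) and when the fit held the compared groups alone (adjusted p 0.0401). Fis1 and Mff were lower in PERK -/- cells under DMSO. The log2 fold change was -0.36 for Fis1 (SE 0.14, edgeR adjusted p 0.0369), lost without WT DMSO replicate 1 (-0.35) or 2 (-0.28) or PERK -/- DMSO replicate 1 (-0.35) or 3 (-0.33), and under scaling by library size alone (-0.31). Mff, the main DRP1 receptor of many cells, was at 68.6, 76.9 and 55.8 CPM in WT and at 51.2, 54.3 and 49.1 CPM in PERK -/- cells, with no overlap. Its log2 fold change was -0.38 (SE 0.11, edgeR adjusted p 0.00663), lost without WT DMSO replicate 2 (-0.27, edgeR adjusted p 0.0735). Mff had log2 fold changes from -0.14 to 0.20 over the treatment comparisons, and with all groups in the fit and no block none was called. For BtdCPU added to thapsigargin in PERK -/- cells its groups did not overlap, and it was called at 0.24 when the fit held the compared groups alone (edgeR adjusted p 0.0295).

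Of the OPA1 proteases, Oma1 showed the clearest difference between genotypes, in the response to halofuginone against DMSO alone. In WT cells it was at 16.3, 15.3 and 15.8 CPM with DMSO, at 13.6, 12.1 and 11.7 CPM with Thapsigargin and at 10.9, 11.1 and 10.7 CPM with Halofuginone, and neither treated group overlapped DMSO. Oma1 fell by 0.34 on the log2 scale with thapsigargin (SE 0.11, edgeR adjusted p 0.0107) and by 0.54 with halofuginone (SE 0.11, edgeR adjusted p 7.85e-05). Oma1 in PERK -/- cells was at 16.1, 15.2 and 15.4 CPM with DMSO and at 16.8, 16.5 and 16.1 CPM with Halofuginone, a log2 fold change of 0.08 (SE 0.11, edgeR adjusted p 0.592). The responses to halofuginone differed by 0.62 (SE 0.15, edgeR adjusted p 0.00234), and this difference was called under all 18 alternatives. No other genotype difference of Oma1 was called. The values were 0.20 for thapsigargin, 0.28 for BtdCPU, -0.10 for BtdCPU added to thapsigargin and -0.05 for halofuginone added to thapsigargin. Under DMSO the genotypes differed by -0.02. Halofuginone added to thapsigargin gave Oma1 0.08 in WT cells, not called. The fall with thapsigargin held when any 1 library was left out, but not with no filter on low counts (-0.37, edgeR adjusted p 0.0743) or when the fit held the compared groups alone (-0.34, edgeR adjusted p 0.0598).

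Yme1l1, the protease that cuts OPA1 under basal conditions, was at 243.0, 280.2 and 185.8 CPM in WT DMSO and at 324.5, 315.5 and 252.3 CPM in WT Halofuginone libraries, which overlapped. The rise of 0.33 (SE 0.14, edgeR adjusted p 0.0404) was lost without WT Halofuginone replicate 1 (0.20) or 2 (0.22) or WT DMSO replicate 1 (0.29) or 3 (0.12), and under scaling by library size alone (0.20, edgeR adjusted p 0.271), no filter on low counts (0.26) or the compared groups alone in the fit (0.32). The replicate block kept the call, and each Halofuginone library lay above the DMSO library of the same replicate number. This rise was the only call of Yme1l1 among the 16 comparisons in the main fit. In RefSeq Yme1l1 overlaps Mastl, whose log2 fold change here was -0.35 (edgeR adjusted p 0.0321).

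Fusion was set against fission in each library as the mean log2 CPM of the 3 fusion genes minus that of the 5 fission genes. Apart from the prior count of 2 added before the logarithm, this difference does not change with the scaling of a library. It gives each gene of a side equal weight, whatever its level, and is given as a description with no test. In WT cells it was 0.41 ± 0.24 (SD, n = 3) with DMSO, 0.44 ± 0.20 with Thapsigargin, 0.67 ± 0.15 with BtdCPU, 0.63 ± 0.12 with BtdCPU + Thapsigargin, 0.86 ± 0.17 with Halofuginone + Thapsigargin and 1.09 ± 0.21 with Halofuginone. In PERK -/- cells it was 1.15 ± 0.12 (SD, n = 3) with DMSO, 1.15 ± 0.11 with BtdCPU + Thapsigargin, 1.17 ± 0.04 with Thapsigargin, 1.27 ± 0.09 with BtdCPU, 1.32 ± 0.09 with Halofuginone + Thapsigargin and 1.40 ± 0.15 with Halofuginone. The WT Halofuginone libraries, 0.93 to 1.32, lay above the WT DMSO libraries, 0.17 to 0.65, and the PERK -/- DMSO libraries, 1.03 to 1.27, did so too. The PERK -/- Halofuginone libraries, 1.293 to 1.575, lay above the PERK -/- DMSO libraries. In both genotypes the Halofuginone + Thapsigargin libraries lay above those with Thapsigargin. Both sides moved unevenly with halofuginone in WT cells. Mfn1 and Mfn2 rose while Opa1, at -0.07, was not called, and Fis1 and Mief2 fell while Dnm1l and Mief1 rose.

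**Figure D4:**
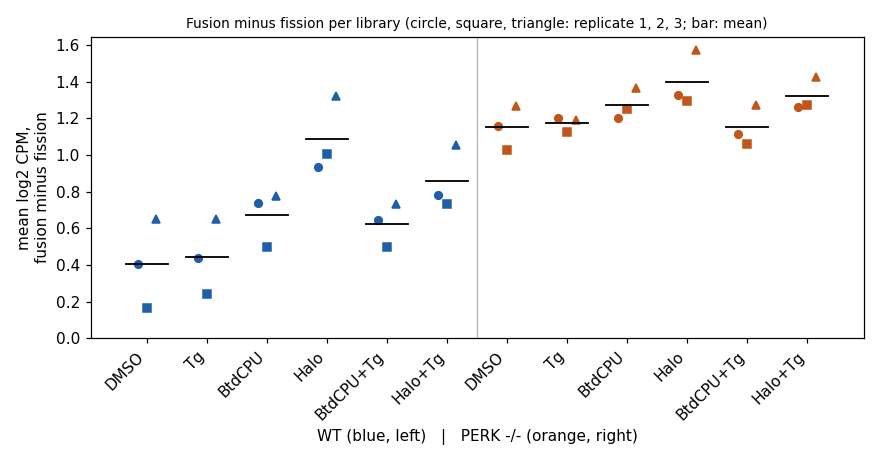
Mean log2 CPM of the fusion genes minus that of the fission genes in each library (vertical axis), by treatment, with the replicate number as the symbol and group means as bars; Tg is thapsigargin and Halo is halofuginone. Replicate 3 (triangle) is highest in 6 of 6 WT groups and in 5 of 6 PERK -/- groups.

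Libraries with the same replicate number shared a pattern within these genes. In WT cells replicate 3 was lowest for Fis1, Mff and Yme1l1 and highest for Mfn2 in 6 of 6 groups. Replicate 3 of PERK -/- cells was highest for Mfn2 in 6 of 6 groups and lowest for Fis1 in 5 of 6. The labels do not say what a replicate number stands for. A fit with the replicate number as a block kept every member call and added others, which are named with the alternatives.

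Across the 12 group means the mitofusins varied together, with a Pearson r of 0.87 between Mfn1 and Mfn2 in log2 CPM. Opa1 and Yme1l1 went opposite ways (r = -0.91), as did Mfn1 and Mff (-0.82), Fis1 and Mief1 (-0.82), and Mfn2 and Fis1 (-0.79). These are descriptions over 12 points that share genotypes, treatments and library scaling. The genes outside the members closest to Mief2 over the 36 libraries were Tssc4 (r = 0.88), Rpn1 (0.87) and Nans (0.86).

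Other genes of mitochondrial dynamics were taken from a list of 32, of which 29 were tested. Between genotypes under DMSO, 16 were higher and 7 lower in PERK -/- cells, beside 49.5% of all genes called. The median log2 fold change was 0.37, against 0.02 over all tested genes. Rhot2, a GTPase that links mitochondria to transport motors, was at 101.5 ± 5.89 CPM in PERK -/- against 40.7 ± 2.69 CPM in WT cells (SD, n = 3), a rise of 1.32 (SE 0.10, edgeR adjusted p 2.50e-12). Phb2, a prohibitin of the inner membrane, was higher by 0.76 (SE 0.09). Inf2, a formin that assembles actin at sites of division, was lower by a log2 fold change of -0.88 (SE 0.17), and Dnm2, a dynamin, by -0.82 (SE 0.09).

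In WT cells thapsigargin raised 11 and lowered 5 of the 29 (median 0.09, all genes 0.02), beside 47.6% of all genes called. Mtfr1, a regulator named for promoting fission, rose by 0.86 (SE 0.09, edgeR adjusted p 1.68e-09), to 193.8 ± 20.4 CPM from 106.7 ± 4.27 CPM (SD, n = 3), and Parl, the rhomboid protease of the inner membrane, by 0.71 (SE 0.08). Phb, the other prohibitin, changed by -1.27 (SE 0.24) and Mtfr2 by -1.16 (SE 0.21). Halofuginone raised 9 and lowered 12 in WT cells (median -0.15, all genes 0.00), beside 68.2% of all genes called. Spire1, an actin nucleator with a form on mitochondria, rose by 1.85 (SE 0.17, edgeR adjusted p 7.04e-11) and Pgam5, a phosphatase that acts on DRP1, by 0.88 (SE 0.08), while Phb changed by -2.19 (SE 0.25) and Prelid1, a lipid carrier of the intermembrane space, by -0.75 (SE 0.09). BtdCPU raised 4 and lowered 3 in WT cells (median 0.13), beside 22.2% of all genes called. Those raised included Mtfr1 (0.56, SE 0.09) and Spire1 (0.65, SE 0.17). Those lowered included Fam73b, now called Miga2, at -0.58 (SE 0.11), and Trak2, a motor adaptor, at -0.49 (SE 0.11). The Spire1 call was lost without WT BtdCPU replicate 3 (0.53) or WT DMSO replicate 2 (0.51). When the fit held the compared groups alone, Spire1 (0.64), Fam73b (-0.59) and Trak2 (-0.50) were not called.

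Halofuginone added to thapsigargin raised 5 and lowered 9 in WT cells (median -0.22, all genes 0), beside 45.3% of all genes called. Trak2 rose by 0.68 (SE 0.11) and Spire1 by 0.62 (SE 0.17), the latter call being lost without WT Halofuginone + Thapsigargin replicate 3 (0.42), and Phb changed by -0.90 (SE 0.24) and Dnm2 by -0.57 (SE 0.09). For BtdCPU added to thapsigargin in WT cells edgeR called 0 of the 29, beside 2.32% of all genes. Of the 29, 7 had an unadjusted p under 0.05 and DESeq2 called 3.

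Thapsigargin in PERK -/- cells raised 2 and lowered 10 of the 29 (median -0.17, all genes 0.05), beside 27.9% of all genes called. Akap1, the scaffold that brings protein kinase A to DRP1, was at 111.1 ± 7.38 CPM with DMSO and at 60.6 ± 2.79 CPM with Thapsigargin (SD, n = 3), a log2 fold change of -0.88 (SE 0.13, edgeR adjusted p 2.26e-06). Pgam5 was at 75.5 ± 4.38 and 42.4 ± 2.54 CPM, a log2 fold change of -0.83 (SE 0.08, edgeR adjusted p 1.22e-09). 0610009O20Rik, now called Dele1, whose product relays mitochondrial stress to HRI, rose by 0.43 (SE 0.12), and Spg7, an inner-membrane protease subunit, by 0.38 (SE 0.08).

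Adding either compound to thapsigargin raised Akap1 and Pgam5 in PERK -/- cells. With BtdCPU, 12 of the 29 rose and 3 fell (median 0.11, all genes -0.04), beside 35.6% of all genes called. Akap1 rose by 0.91 (SE 0.13, edgeR adjusted p 9.28e-07) and Pgam5 by 0.77 (SE 0.08, edgeR adjusted p 5.83e-09). Inf2 changed by -0.73 (SE 0.17) and Mtfr2 by -0.74 (SE 0.21). The Mtfr2 call was lost without PERK -/- BtdCPU + Thapsigargin replicate 3 (-0.57). With halofuginone, 12 rose and 7 fell (median 0.15, all genes -0.01), beside 52.7% of all genes called. Pgam5 was at 1.36 (SE 0.08, edgeR adjusted p 1.10e-14), Akap1 at 0.76 (SE 0.13), Mtfr2 at -1.09 (SE 0.21) and Inf2 at -1.01 (SE 0.17). Akap1 then stood at 114.1 ± 6.55 CPM with BtdCPU + Thapsigargin and 102.7 ± 2.12 CPM with Halofuginone + Thapsigargin (SD, n = 3). These comparisons share the thapsigargin libraries with the comparison of thapsigargin against DMSO.

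Against DMSO in PERK -/- cells, halofuginone raised 7 and lowered 6 of the 29 (median -0.03, all genes 0), beside 42.2% of all genes called. Mtfr1 rose by 0.73 (SE 0.09) and Pgam5 by 0.69 (SE 0.08), and Mtfr2 changed by -0.99 (SE 0.21) and Inf2 by -0.72 (SE 0.17). BtdCPU lowered 1, beside 3.59% of all genes called. This was Fam73b, by 0.40 on the log2 scale (SE 0.11, edgeR adjusted p 0.0252). The call was lost without PERK -/- BtdCPU replicate 1 (-0.37) or 2 (-0.40) or PERK -/- DMSO replicate 2 (-0.38) or 3 (-0.38). Responses differed between genotypes for 17 of the 29 with thapsigargin (5 higher and 12 lower in PERK -/- cells, beside 38.1% of all genes) and for 8 with halofuginone (5 and 3, beside 35%). They differed for 11 with BtdCPU added to thapsigargin (9 and 2, beside 20.8%) and for 17 with halofuginone added to thapsigargin (11 and 6, beside 32.7%). With BtdCPU they differed for 0 by edgeR (beside 0.199%), with 3 at an unadjusted p under 0.05 and 0 called by DESeq2.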

How the data were processed

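RNA-seq libraries of mouse embryonic fibroblasts were deposited by the authors as 1 table of estimated counts per gene symbol. Per the labels' protocols, libraries were strand-specific and sequenced on DNBSEQ. The submitters' processing notes name DESeq and GRCm39, and the counting tool is not given in the sources used here. A value of 0.025 stands for 0 in 50.6% of entries and was set to 0, and 2.69% of the other values were not whole, so values were rounded. The 27 entries whose names had turned into dates (0.206 to 0.278% of counts) were left out, and 39 duplicated symbols (86 entries) were summed.

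The test was that of edgeR 4.0.16 (R 4.3.3) on counts (quasi-likelihood, TMM, low-count filter by group, 12 group means on 36 libraries, 24 residual degrees of freedom). Adjustment was by Benjamini-Hochberg within each of 16 contrasts, over 16065 genes, and a gene was called under 0.05. Of the contrasts, 11 compared 2 groups and 5 were differences of responses between genotypes. CPM used TMM sizes, and lengths were unions of exons. The procedure was tested on simulated data for thapsigargin in WT cells (16065 genes), where it recovered 99% of 100 genes changed by 1 on the log2 scale and 21% of 100 changed by 0.5. No 2 replicates agreed within sampling noise (chi-square per degree of freedom at least 9.219).

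Alternatives were RLE size factors, library size only, no low-count filter, DESeq2 1.42.0, only the compared groups, a replicate block and each library left out. Replicate numbers paired libraries where every correlation of same-numbered deviations was over 0.1, from the data and not the labels. This held for both additions to thapsigargin in WT cells (0.159 to 0.337 for BtdCPU and 0.162 to 0.308 for halofuginone). The members and lists were chosen with earlier results of these data known. All 10 members were named. Of the other dynamics genes, at most the 2 largest called rises and falls per comparison were named, given a mean log2 CPM of at least 2 and no overlap. Of 32 listed, 31 were in the table.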

Additional observations from a re-analysis of the deposited data

Results flagged for a closer look

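The following responses passed the threshold in a test of the difference between genotypes, given as the PERK -/- minus the WT response on the log2 scale. For thapsigargin against DMSO the difference was -0.32 for Mfn1, -0.37 for Dnm1l and -0.63 for Mief2. For halofuginone against DMSO it was -0.49 for Mfn1, -0.50 for Mfn2, -0.45 for Mief1 and 0.62 for Oma1. For halofuginone added to thapsigargin it was -0.47 for Mief1 and 0.68 for Mief2. Of all genes, 38.1%, 35% and 32.7% differed in these tests, in the same order. Only the Oma1 difference was called under all 18 alternatives. The Mfn1 difference for halofuginone was called in 17, and the Mief2 difference for halofuginone added to thapsigargin in 13. Each of the others was called in 6 to 8 of the 18.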

How the results depend on the processing

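Of 43 member calls, 20 held under every alternative run, and of 117 member results not called, 91 were called under none. No result reversed, and 127 of 2220 values under alternatives changed sign where neither value passed. Library size as the only scaling moved the median of all genes to -0.11 for halofuginone in WT cells. It also moved the share of calls that were higher from 58.1% to 45.1% for BtdCPU and from 55.9% to 80.7% for BtdCPU added to thapsigargin, both in WT cells. In the simulated data, with 3 libraries a group, 21% of changes of 0.5 were recovered. There, 100 genes changed by that size and 100 by 1, among 16065, with the same spread set for every gene. In the real data thapsigargin in WT cells called 47.6% of all genes. The adjusted p depends on that share, so the 21% does not tell how many changes were missed here.

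For BtdCPU in WT cells, members called went from 1 to 2 with RLE size factors, library size only, no filter or DESeq2, to 0 with only the compared groups and to 5 with the replicate block. All genes called there went from 3571 to 829 with only the compared groups and 5534 with the block. For BtdCPU added to thapsigargin in WT cells, members went from 0 to 1 with DESeq2 and 2 with the block, and all genes from 372 to 813 with no filter, 866 with DESeq2, 34 with only the compared groups and 2079 with the block. For thapsigargin in WT cells, members went from 5 to 2 with no filter and 1 with only the compared groups. In PERK -/- cells, thapsigargin went from 0 members to 1 with only the compared groups and 2 with the block, halofuginone from 3 to 6 with the block, and BtdCPU added to thapsigargin from 3 to 5 with either. All genes called for BtdCPU in PERK -/- cells went from 577 to 877 with DESeq2, 1253 with only the compared groups and 1577 with the block.

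Among differences between genotypes, members for thapsigargin went from 3 to 0 with no filter and 1 with only the compared groups, those for halofuginone from 4 to 2 with no filter and 7 with the block, those for halofuginone added to thapsigargin from 2 to 1 with no filter or only the compared groups, and those for BtdCPU added to thapsigargin from 0 to 1 with library size only and 2 with the block. All genes for BtdCPU went from 32 to 314 with no filter, 161 with DESeq2, 2 with only the compared groups and 587 with the block. The replicate block lost no member call and added 22. In WT cells these were Fis1 for thapsigargin (-0.31), Mfn2 (0.18), Fis1 (-0.30), Mief2 (-0.47) and Yme1l1 (-0.33) for BtdCPU, and Fis1 (-0.27) and Oma1 (0.32) for BtdCPU added to thapsigargin. In PERK -/- cells they were Mfn2 (0.17) and Dnm1l (-0.21) for thapsigargin, Mfn1 (0.18), Mff (0.17) and Mief2 (-0.39) for halofuginone, and Mff (0.21) and Yme1l1 (-0.25) for BtdCPU added to thapsigargin. Between genotypes the block added Dnm1l under DMSO (-0.23). Among the differences of responses it added Fis1 for thapsigargin (0.43), Fis1 (0.30), Mief2 (0.62) and Yme1l1 (-0.28) for halofuginone, Mfn1 (-0.30) and Mff (0.30) for BtdCPU added to thapsigargin, and Dnm1l for halofuginone added to thapsigargin (0.33). The cause of these shifts was not tested.

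With 1 library left out, members called ranged from 0 to 4 for BtdCPU and 2 to 6 for thapsigargin in WT cells, 3 to 6 between genotypes, and 1 to 3 for halofuginone and for BtdCPU added to thapsigargin in PERK -/- cells. For the differences between genotypes they ranged from 0 to 3 (thapsigargin), 2 to 5 (halofuginone), 0 to 2 (halofuginone added to thapsigargin) and 0 to 1 (BtdCPU added to thapsigargin). All genes called ranged from 1756 to 5088 for BtdCPU and 41 to 345 for BtdCPU added to thapsigargin in WT cells, 337 to 422 for BtdCPU in PERK -/- cells, and 14 to 864 for the BtdCPU difference between genotypes.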
